A study of Mus musculus with 6 samples.

Results

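Immune checkpoint genes encode surface and secreted proteins through which tumor cells and antigen-presenting cells restrain or license lymphocytes. The genes described here are 10 named genes, matched by symbol in the deposited table of 45777 genes, and all 10 were found: Cd274, Pdcd1lg2, Cd80, Cd86, Cd276, Vsir, Lgals9, Havcr2, Pvr and Nectin2. Of these, 9 encode ligands and Havcr2 encodes a receptor. Total RNA was sequenced from 3 tumors of the hind footpad and 3 tumors of the flank skin, 1 library per tumor, all grown from B16F10, a pigmented mouse melanoma cell line. The labels give every host as a Foxn1-/- mouse of 8 weeks, and no treatment is named for either site. The study's methods describe B16F10 grafts both in C57BL/6J females, which have T cells, and in Foxn1-null mice, each younger than 8 weeks at grafting. They do not say which host the sequenced tumors came from, so the host rests on the labels alone. Foxn1-/- mice, known as nude mice, lack a functional thymus and are therefore poor in T cells, which limits them as hosts for a study of checkpoint genes, whereas myeloid cells and natural killer cells remain. The study often placed both grafts in the same animal, and its legend for gene expression in these tumors gives n = 3 mice. Which tumors shared a mouse is not given. Its methods speak of tumor cells isolated from the graft sites for RNA extraction, but give no procedure for it, while the labels speak of removed tumors. In bulk RNA, fewer cells of a type and less RNA per cell cannot be told apart.

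As background, T cells need a signal from CD28 in addition to antigen, and Cd80 and Cd86 encode the ligands that give it. The same ligands bind CTLA-4, which opposes CD28. Cd274 and Pdcd1lg2 encode PD-L1 and PD-L2, the ligands of the inhibitory receptor PD-1, and Cd276 (B7-H3) and Vsir (VISTA) encode further relatives of the B7 family. Galectin-9, the product of Lgals9, binds TIM-3, the product of Havcr2, which is carried by exhausted T cells and also by macrophages and dendritic cells. Pvr (CD155) and Nectin2 (CD112) encode adhesion proteins of the nectin group, which engage the activating receptor CD226 and the inhibitory receptors TIGIT, CD96 and PVRIG on T cells and natural killer cells. Interferon-gamma is the best known inducer of PD-L1.

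In coordinates of GRCm38, the build also called mm10, Cd274 lies on chromosome 19 from 29362107 to 29388095 and Pdcd1lg2 follows on the same strand from 29410919 to 29472927, 22.8 kb further on. Pvr, from 19903578 to 19921143, and Nectin2, from 19716644 to 19749573, share chromosome 7 and lie 154 kb apart. Cd80, from 38457430 to 38495958, and Cd86, from 36568956 to 36666158, share chromosome 16, and Lgals9, from 78962979 to 78984924, and Havcr2, from 46454931 to 46481255, share chromosome 11. Cd276 lies on chromosome 9 from 58524300 to 58555033. Vsir lies on chromosome 10 from 60346851 to 60430294, within the span of Cdh23, a cadherin gene on the opposite strand. The strand setting of the counting is not given in the sources used here, so reads of Vsir and Cdh23 cannot be told apart by annotation alone.

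Promoter windows of RefSeq, GRCm38.p6, from 250 bases before to 50 bases after an annotated start, were found for 8 of the 10 genes, and none was matched for Cd86 and Pvr. They were searched on both strands for 5 short motifs, and a match is a description of the letters and not of a binding site. The windows of Havcr2, the gene called different between the sites, and of Cd274 and Lgals9, which encode ligands known to respond to interferon, are shown 5′ to 3′ on the gene's strand, with every motif match in capitals.
Havcr2, chr11:46454681-46454980, plus strand: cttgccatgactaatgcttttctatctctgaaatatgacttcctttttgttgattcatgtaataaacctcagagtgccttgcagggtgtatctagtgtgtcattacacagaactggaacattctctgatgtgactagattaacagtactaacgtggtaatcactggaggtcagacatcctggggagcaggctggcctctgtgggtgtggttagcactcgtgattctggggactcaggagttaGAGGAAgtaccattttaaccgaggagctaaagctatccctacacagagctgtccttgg
Cd274, chr19:29367188-29367487, plus strand: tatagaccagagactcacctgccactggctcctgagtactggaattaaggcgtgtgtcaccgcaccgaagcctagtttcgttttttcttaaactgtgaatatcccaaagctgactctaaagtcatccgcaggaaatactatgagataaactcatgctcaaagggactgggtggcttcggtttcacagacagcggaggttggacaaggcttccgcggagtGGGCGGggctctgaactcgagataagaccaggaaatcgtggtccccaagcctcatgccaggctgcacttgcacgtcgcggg
Lgals9, chr11:78984875-78985174, minus strand: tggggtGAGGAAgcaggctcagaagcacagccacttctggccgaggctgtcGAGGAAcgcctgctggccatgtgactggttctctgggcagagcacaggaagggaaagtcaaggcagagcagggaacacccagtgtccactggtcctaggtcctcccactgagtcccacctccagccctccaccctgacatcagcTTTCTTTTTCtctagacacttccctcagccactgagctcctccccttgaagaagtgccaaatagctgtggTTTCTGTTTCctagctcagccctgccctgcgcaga
The Havcr2 window holds 1 match to GAGGAA, a core of the sites of ETS factors such as the myeloid factor PU.1, from 8 bases before the start. This motif was in 28.3% of all 32851 windows. The Cd274 window, whose start lies inside the annotated span of the gene, holds 1 GC box, GGGCGG, from 31 bases before the start, a motif present in 35.7% of windows. The Lgals9 window holds 2 matches to the core of the interferon-stimulated response element (GAAA, any 2 bases, GAAA), on the minus strand of the window, and 2 matches to GAGGAA. The interferon motif was in 3.44% of all windows and in 1 of the 8 windows of these genes. TTCNNNGAA, the interferon-gamma activated sequence, and GGAATG, the TEAD motif through which YAP acts, were in 8.30% and 14.7% of all windows and in 0 of these 8.

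Reads counted on genes numbered between 46529649 and 66364366 per tumor. Counts are given as CPM, read counts scaled to library size with edgeR's TMM factors, and sets of 3 values follow the order of replicates 1, 2 and 3 of a site. SE denotes the standard error and SD the standard deviation. A level of 3 counts, taken as the limit of detection, equalled 0.0438 to 0.0673 CPM. Markers of other tissues differed between tumors. Of 11 neutrophil markers, 10 peaked in footpad replicate 1, and their sum was 388, 7.61 and 187 CPM in the footpad and 4.91 to 33.6 CPM in flank tumors. Keratinocyte markers (7 of 7) and skeletal muscle markers (8 of 8) peaked in footpad replicate 2, with Krt10 at 282 CPM and Myh1 at 192 CPM, against at most 6.85 and 22.5 CPM in the other tumors. Flank replicate 1 had the lowest level of 12 of 14 macrophage markers. Fibroblast markers summed to between 2765 and 3772 CPM in footpad tumors and between 95.9 and 433 CPM in flank tumors, with 8 of 10 called higher and Dcn at 33.6 to 53.8 against 1.42 to 8.02 CPM. Endothelial markers summed to 117 to 185 CPM in footpad and 69.1 to 84.5 CPM in flank tumors. Of these 7, 6 had every footpad tumor above every flank tumor, and 2 were called higher. Over all genes tested, 17.5% had every footpad tumor above every flank tumor, and 2.89% were called higher. Pigment cell markers were abundant in all 6 tumors, with Pmel at 2400 to 5046 CPM and Mitf at 455 to 1084 CPM. Of 22 markers of T, natural killer and B cells, 3 passed the filter on low counts. What part these cells had in the results below was not tested unless a value is given.

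The first question was how abundant each gene was, which was read from FPKM, the deposited value per transcript length and library depth. Lgals9 was the most abundant of the 10, with 25.1 ± 5.61 FPKM (SD, n = 6) over all tumors, followed by Pvr with 12.4 ± 2.35 FPKM. Lgals9 exceeded Pvr in 6 of 6 tumors and their ranges did not overlap. Pvr exceeded Nectin2 in 6 of 6 tumors, with overlapping ranges. Lgals9 and Pvr together held between 63.3% and 70.6% of the summed FPKM of the 10 genes in a tumor. Nectin2 (7.32 ± 2.06 FPKM, SD, n = 6) and Cd276 (5.73 ± 1.26 FPKM) were neighbors in this order that did not differ beyond their spread, with Nectin2 higher in 4 of 6 tumors, the 3 flank tumors and footpad replicate 3. The order of their means differed by site, at 6.52 FPKM for Cd276 and 6.195 FPKM for Nectin2 in the footpad and 4.93 and 8.44 FPKM in the flank. Cd276 exceeded Cd274 in 6 of 6 tumors.

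The lower part of the order was less fixed. Cd274 had 1.96 ± 0.953 FPKM (SD, n = 6), Vsir 1.42 ± 1.16 FPKM and Havcr2 1.05 ± 0.631 FPKM. Cd274 exceeded Vsir in 5 of 6 tumors, and Vsir exceeded Havcr2 in 4 of 6, with overlapping ranges. Havcr2 exceeded Cd80 in 6 of 6 tumors. Cd80 and Cd86 were lower, at 0.306 ± 0.378 and 0.277 ± 0.226 FPKM, and each was the higher of the pair in 3 tumors. Pdcd1lg2 was last, at 0.0334 ± 0.0438 FPKM, and was listed at 0 in footpad replicate 2 and flank replicate 3. The ligands at the top of the order were thus those of TIM-3 and of the nectin-binding receptors, and the classical B7 ligands of CD28 were near the bottom at both sites.

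**Figure D1:**
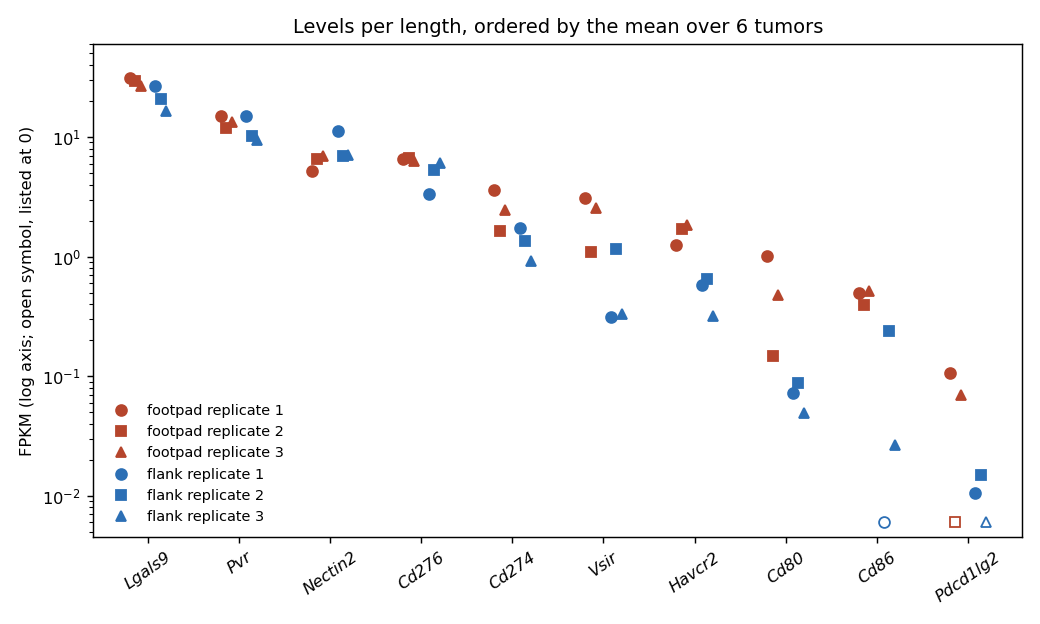
FPKM of the 10 genes in each of 3 footpad and 3 flank skin tumors on a log axis, ordered by the mean over the 6 tumors; 1 symbol is 1 tumor, and open symbols are values listed at 0. Lgals9 lay between 16.4 and 31.3 FPKM, and Pdcd1lg2 did not exceed 0.106 FPKM.

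All 17210 genes past the filter on low counts were then fitted by edgeR's quasi-likelihood method, to ask which checkpoint genes differed with the site of the graft. Of the 10 genes, 9 passed this filter, and only Pdcd1lg2 did not. Calls required both a fold change of at least 2 and an adjusted p below 0.05. Havcr2 was called higher in footpad tumors, 1 of 9 genes, where 2.89% of all genes tested were called higher. In the other direction 0 of 9 were called in edgeR's test, where 0.872% of all genes were. At an unadjusted p under 0.05, 4 of 9 were higher (Havcr2, Cd80, Vsir and Cd274), against 14.8% of all genes, and 0 of 9 were lower, against 10.5%. DESeq2 called 3 higher (Cd80, Vsir and Havcr2), against 6.71% of all genes, and 0 lower, against 2.05%. With limma on log2(FPKM + 1), 0 of 9 were called higher and 0 lower, against 1.57% and 0.552%; at an unadjusted p under 0.05 they were 6 and 0 of 9, against 12.7% and 8.98%. Of the 9, 8 had a positive log2 fold change, as had 49.7% of all genes. Their median log2 fold change was 0.95, beside 0.00 over all genes tested.

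In 4 of the 9 genes (Cd80, Cd86, Cd276 and Havcr2) every footpad tumor lay above every flank tumor, and in 0 of 9 every footpad tumor lay below. Over all genes tested these shares were 17.5% and 14.9%. Of the 10 genes, 8 peaked in footpad replicate 1. Among the 3 footpad tumors, replicate 2 had the lowest level of 6 of the 10.

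**Figure D2:**
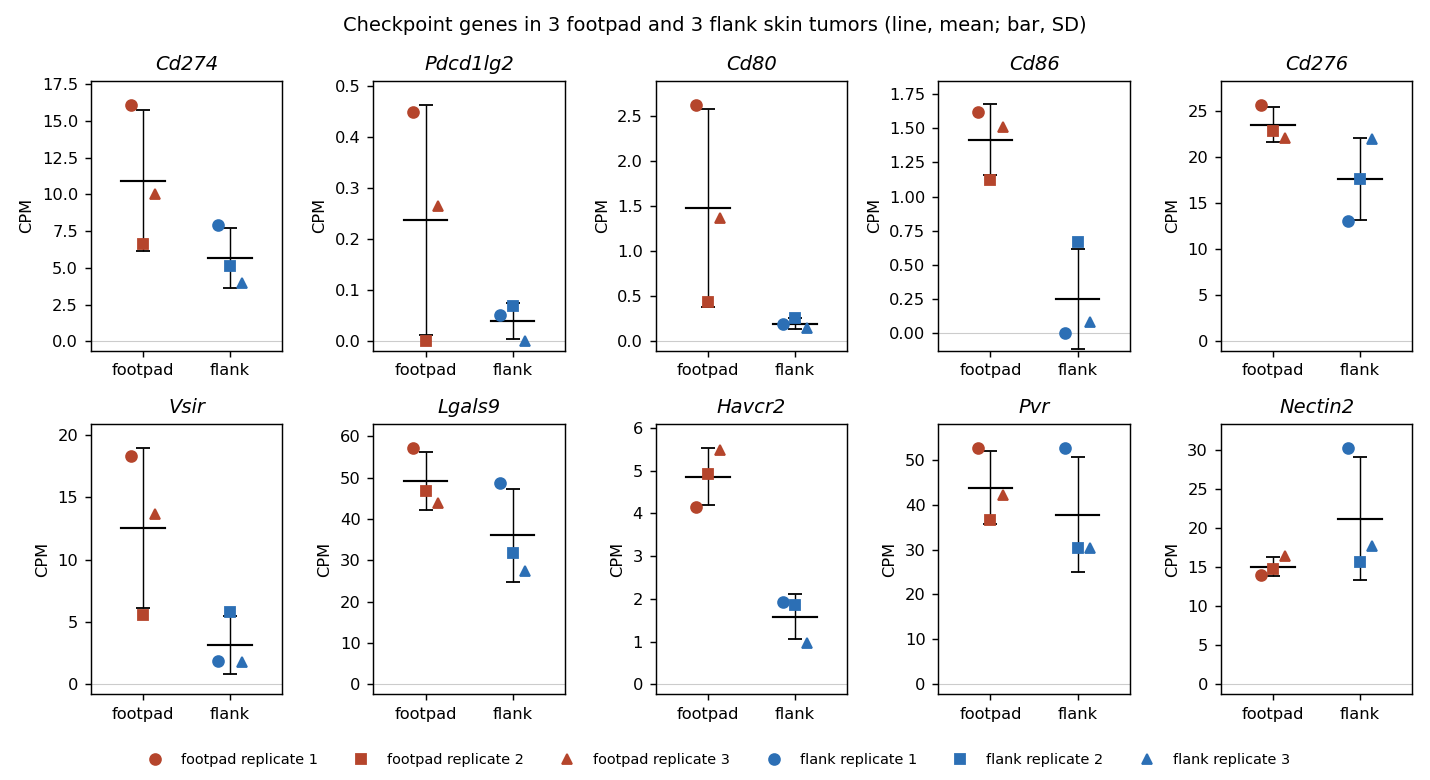
CPM of each of the 10 genes in 3 footpad and 3 flank skin tumors, with the mean as a horizontal line and the SD as a bar; each panel has its own linear axis, which includes 0. The sites are apart for Havcr2, with footpad tumors from 4.15 to 5.49 CPM and flank tumors from 0.975 to 1.93 CPM, and overlap for Pvr.

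Havcr2, which encodes the receptor TIM-3, was the one gene past both thresholds. It was at 4.15, 4.93 and 5.49 CPM in the footpad, against 1.93, 1.85 and 0.975 CPM in the flank. The sites did not overlap, and all footpad tumors were above all flank tumors. The log2 fold change was 1.62 (SE 0.34 and adjusted p = 0.0429, edgeR), a 3.06-fold difference. Leaving out any 1 of the 6 tumors ended the call, with log2 fold changes between 1.35 and 1.78 and adjusted p values between 0.0608 and 0.152 from edgeR. Unlike most of the genes, Havcr2 was lowest among footpad tumors in replicate 1, the tumor richest in neutrophil markers.

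Lgals9, whose product galectin-9 binds TIM-3, was at 57.2, 46.7 and 43.9 CPM in the footpad, against 48.8, 31.8 and 27.5 CPM in the flank. Flank replicate 1 lay among the footpad tumors. The log2 fold change of 0.45 (SE 0.23 and adjusted p = 0.265, edgeR) did not pass. Within a tumor, the FPKM of Lgals9 was 25.1, 17.3 and 14.5 times that of Havcr2 in the footpad tumors and 46.3, 31.5 and 51.8 times in the flank tumors. The log2 ratio was lower in footpad tumors, at 4.21 ± 0.40 against 5.40 ± 0.38 (SD, n = 3; two-sided exact permutation test, p = 0.1, adjusted p = 0.1 over 2 ratios, the smallest that 3 tumors against 3 allow).

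Cd80 and Cd86, the ligands of CD28 and CTLA-4, had low counts and, in edgeR's test over the 9 genes, the largest fold changes. With limma on log2(FPKM + 0.1) Vsir (1.83) stood above Cd86 (1.79) and Cd80 (1.68), and on log2(FPKM + 1) Vsir (1.00) and Havcr2 (0.77) stood above Cd80 (0.49) and Cd86 (0.43). Cd80 was at 2.63, 0.438 and 1.37 CPM in the footpad, against 0.190, 0.257 and 0.144 CPM in the flank, the latter from 9 to 15 reads per tumor. The sites did not overlap, but the footpad tumors differed among themselves by more than the gap between the sites. Its log2 fold change was 2.89 (SE 0.70 and adjusted p = 0.0578, edgeR). DESeq2 gave an adjusted p of 0.0026, and the alternatives spanned 0.0026 to 0.178. When footpad replicate 2 was left out, Cd80 was the gene called, at a log2 fold change of 3.33 (adjusted p = 0.0247, edgeR), 1 of 10 genes then tested, where 3.62% of all genes were called higher and 1.12% lower.

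Cd86 was at 1.62, 1.123 and 1.51 CPM in the footpad. It had in the flank 0 reads in replicate 1, 0.667 CPM in replicate 2 and 0.0799 CPM in replicate 3. Footpad tumors were close to each other and all above the flank tumors, which were spread from 0 to 39 reads. Its fitted log2 fold change was 2.50 (SE 1.14 and adjusted p = 0.217, edgeR). It depended on flank replicate 2, without which it was 5.04 (adjusted p = 0.0564 from edgeR). The ratio of Cd80 to Cd86 was 2.05, 0.376 and 0.927 in FPKM in the footpad, and 0.365 and 1.86 for replicates 2 and 3 of the flank. It has no value in flank replicate 1, and it was not tested.

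Cd274, which encodes PD-L1, was at 16.1, 6.65 and 10.04 CPM in the footpad, against 7.90, 5.15 and 3.95 CPM in the flank. Flank replicate 1 lay above footpad replicate 2, so the sites overlapped. Its fitted log2 fold change was 0.95 (SE 0.39 and adjusted p = 0.181, edgeR), and it ranged from 0.56 without footpad replicate 1 to 1.26 without flank replicate 1. Neither fit passed. Its neighbor Pdcd1lg2, which encodes PD-L2, had 20, 0 and 13 reads in the footpad, against 3, 4 and 0 reads in the flank. It did not pass the filter, and with no filter its log2 fold change was 2.49 (adjusted p = 0.455, edgeR). Without footpad replicate 2, which had the most reads in all and 0 of Pdcd1lg2, the adjusted p was 0.133, and over the alternatives that tested it the adjusted p ranged from 0.133 to 0.552 (edgeR). Where both were detected, Cd274 exceeded Pdcd1lg2 in FPKM by 34.2 and 35.3 times in footpad replicates 1 and 3 and by 165 and 91.2 times in flank replicates 1 and 2. The flank ratios rest on 3 and 4 reads of Pdcd1lg2, and this ratio was not tested.

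Vsir, which encodes the inhibitory ligand VISTA, was at 18.3, 5.60 and 13.7 CPM in the footpad, against 1.85, 5.83 and 1.82 CPM in the flank. Footpad replicate 2 and flank replicate 2 were at the same level, and the other tumors were apart. The log2 fold change was 1.98 (SE 0.60 and adjusted p = 0.0945, edgeR). DESeq2 gave an adjusted p of 0.00368, and the alternatives spanned 0.00368 to 0.270. Without flank replicate 2 the log2 fold change was 2.76, and with limma on log2(FPKM + 1) it was 1.00. Cdh23, which spans Vsir on the other strand, had 87, 10 and 37 reads in the footpad tumors and 0 reads in each flank tumor, against 815, 384 and 671 reads of Vsir in footpad and 107, 341 and 114 in flank tumors. Vsir was thus counted in flank tumors with no read on Cdh23.

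Cd276, which encodes B7-H3, a ligand whose receptor is not settled, had the smallest standard error of the B7 family genes tested. It was at 25.7, 22.8 and 22.1 CPM in the footpad, against 13.1, 17.6 and 22.0 CPM in the flank. The sites did not overlap, but footpad replicate 3 and flank replicate 3 were nearly level. The log2 fold change of 0.42 (SE 0.21 and adjusted p = 0.249, edgeR) did not pass.

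Pvr and Nectin2, the ligands of CD226, TIGIT, CD96 and PVRIG, were abundant at both sites. Pvr was at 52.6, 36.6 and 42.2 CPM in the footpad, against 52.5, 30.3 and 30.4 CPM in the flank. The highest tumors of each site were level, and the log2 fold change was 0.21 (SE 0.25 and adjusted p = 0.630, edgeR). Nectin2 was the only gene of the 9 with a negative fold change. It was at 14.03, 14.8 and 16.5 CPM in the footpad, against 30.3, 15.7 and 17.8 CPM in the flank, so that flank replicate 1 stood above the other 5 tumors. The log2 fold change was -0.49 (SE 0.26 and adjusted p = 0.275, edgeR), and -0.15 without flank replicate 1. Within a tumor, the FPKM of Pvr was 2.89, 1.83 and 1.92 times that of Nectin2 in the footpad tumors and 1.32, 1.47 and 1.31 times in the flank tumors. The log2 ratio was 1.11 ± 0.36 against 0.45 ± 0.09 (SD, n = 3), with no overlap (two-sided exact permutation test, p = 0.1, adjusted p = 0.1 over 2 ratios, the smallest that 3 tumors against 3 allow).

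**Figure D3:**
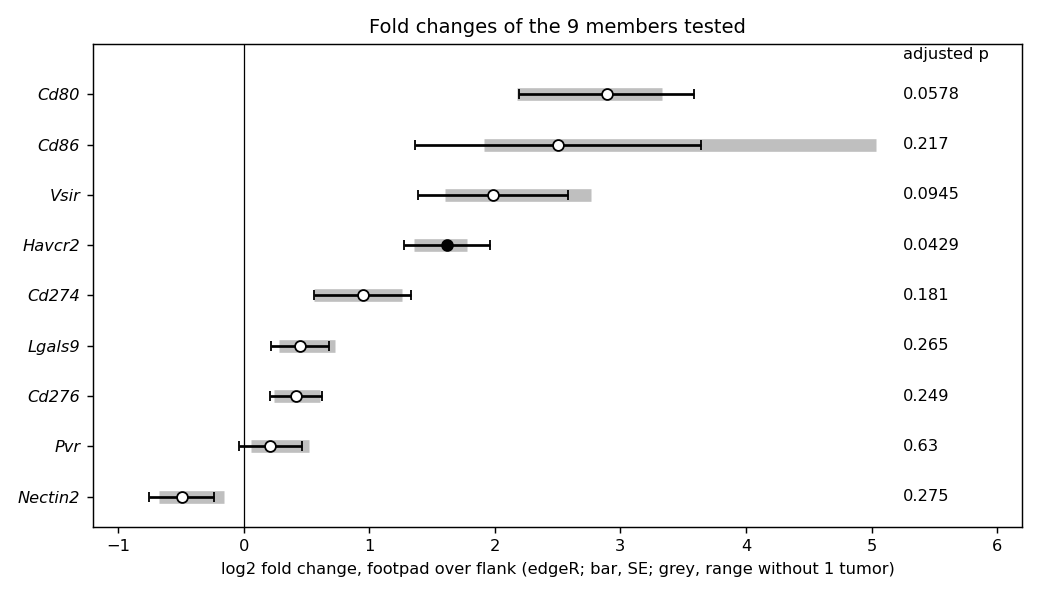
Log2 fold changes, footpad over flank, of the 9 genes tested by edgeR, with the standard error as a bar, the range over the fits without 1 tumor in grey, and the adjusted p at the right; the filled circle was called. Havcr2 had a narrower leave-one-out range, 1.35 to 1.78, than Cd86, 1.92 to 5.04.

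Because Havcr2, Vsir, Cd80, Cd86 and Cd274 are known to be expressed by macrophages, macrophage markers were read beside them. The median log2 fold change of 14 markers was 0.74 in edgeR's test. Of the 14, 13 had a positive log2 fold change, as had 49.7% of all genes. By edgeR 1 was called higher, against 2.89% of all genes. This was Cd68, an endosomal protein of macrophages, at 19.5, 13.3 and 24.3 CPM in the footpad, against 8.80, 6.89 and 4.43 CPM in the flank (edgeR, log2 fold change 1.51 with adjusted p = 0.0429). The call on Cd68 was held in 1 of the 6 fits without a tumor, that without footpad replicate 2. The receptor gene Csf1r was at 15.2, 14.8 and 13.0 CPM in footpad and 0.655, 12.04 and 4.94 CPM in flank tumors, and Adgre1, which encodes F4/80, at 5.32, 8.37 and 6.08 against 1.24, 4.77 and 4.17 CPM; neither passed. The summed level of the 14 markers was 223 to 283 CPM in footpad and 158 to 216 CPM in flank tumors, of which Mertk, at 79.2 to 134 CPM, was the largest part and was highest in flank replicate 1, where 12 of the 14 were lowest. The mean log2 CPM of the markers was 3.22, 2.88 and 3.18 in the footpad and 0.37, 2.91 and 2.01 in the flank, 1.33 higher in footpad tumors, and the sites overlapped.

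Relative to this macrophage level of the same tumor, Havcr2 was at -1.16, -0.57 and -0.72 on the log2 scale in the footpad and at 0.60, -2.01 and -2.02 in the flank. The sites overlapped through flank replicate 1 alone, which was the highest and had the lowest macrophage mean, 0.37. Flank replicates 2 and 3 lay below all footpad tumors on this scale, as they did in CPM. Cd86 remained apart, at -2.51, -2.69 and -2.57 in footpad and -6.22, -3.46 and -5.39 in flank tumors, though the value of flank replicate 1 comes from 0 reads and depends on the prior count of 1. Each footpad tumor lay below all 3 flank tumors for Nectin2, at 0.59 to 1.01 against 1.07 to 4.56. The other 7 genes overlapped. These values are a description without a test, and the part that macrophage number had in any difference was not tested.

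**Figure D4:**
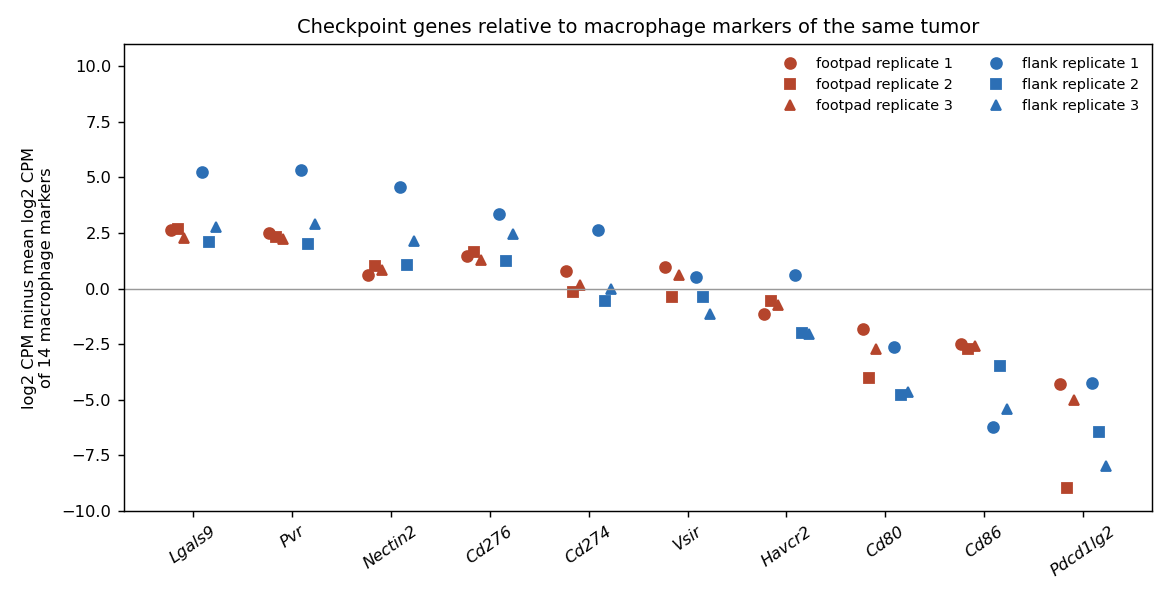
Log2 CPM of each of the 10 genes minus the mean log2 CPM of 14 macrophage markers in the same tumor, 1 symbol per tumor. For Lgals9, Pvr, Nectin2, Cd276, Cd274, Havcr2 and Pdcd1lg2 the highest symbol is flank replicate 1, the tumor with the lowest macrophage mean, 0.37.

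The partners that these proteins bind were examined in a list of 13 genes, of which 8 were tested. By edgeR 0 were called in either direction, against 2.89% higher and 0.872% lower of all genes. At an unadjusted p under 0.05 were 3 (Selplg, Rgmb and Hmgb1), against 14.8% higher and 10.5% lower of all genes. Selplg was higher in footpad tumors, and Rgmb and Hmgb1 were lower. Hmgb1 was at 176 to 302 CPM in footpad and 405 to 540 CPM in flank tumors (edgeR, log2 fold change -0.90 with adjusted p = 0.0635). The median log2 fold change of the 8 was -0.29, beside 0.00 over all genes. DESeq2 called 1, Selplg, where it called 6.71% of all genes higher. Among the receptors of T and natural killer cells, Tigit and Cd226 passed the filter on low counts, and Pdcd1, Cd28, Ctla4, Cd96 and Pvrig did not. Pdcd1, which encodes PD-1, had 0 reads in all 6 tumors, which allows up to 0.0673 CPM in a tumor. Cd28 and Ctla4 reached 0.471 and 0.494 CPM in footpad replicate 1 and did not exceed 0.121 and 0 CPM in the other tumors. Cd96 had reads in 1 tumor, at 0.0817 CPM, and Pvrig did not exceed 0.256 CPM. Tigit had 32 to 95 reads per tumor, at 1.84, 1.196 and 0.653 CPM in the footpad, against 1.45, 1.63 and 0.591 CPM in the flank (edgeR, log2 fold change 0.01 with adjusted p = 0.993). Cd226 was at 1.1, 0.292 and 0.408 CPM against 2.05, 0.291 and 0.128 CPM (edgeR, log2 fold change -0.47 with adjusted p = 0.807). Per length both were low, with means over the 6 tumors of 0.0434 FPKM for Tigit and 0.139 FPKM for Cd226.

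Other partners ranged more widely in level. Nectin3, an adhesion partner of both Pvr and Nectin2, was at 34.0 to 42.3 CPM in footpad and 31.6 to 50.5 CPM in flank tumors. Igsf11, a binding partner of VISTA, was at 11.4 to 27.3 CPM in footpad and 19.0 to 32.3 CPM in flank tumors. Selplg, which encodes the selectin ligand PSGL-1 of leukocytes, was at 5.54, 1.123 and 2.67 CPM in the footpad, against 0.138, 0.633 and 0.208 CPM in the flank (edgeR, log2 fold change 3.24 with adjusted p = 0.0578). Rgmb encodes another partner of PD-L2, and each footpad tumor lay below all 3 flank tumors, at 25.1 to 32.0 against 37.9 to 50.9 CPM (edgeR, log2 fold change -0.68 with adjusted p = 0.0578). Neither passed.

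**Figure D5:**
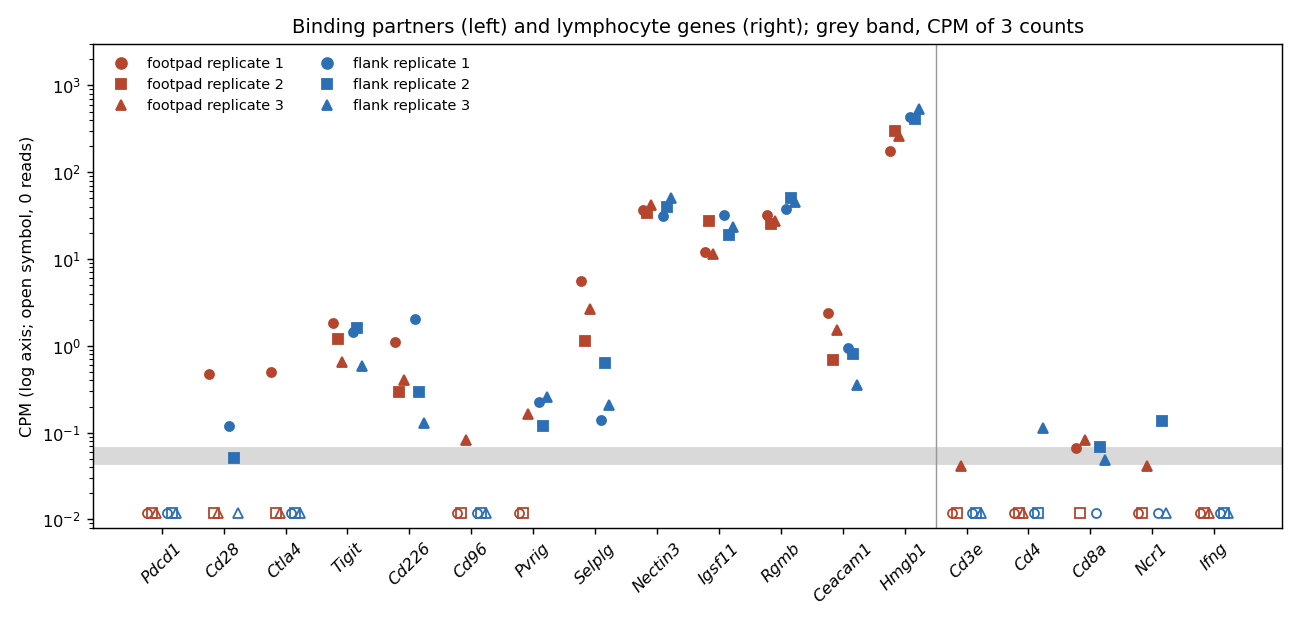
CPM of 13 binding partners of the checkpoint genes (left of the line) and of 5 lymphocyte genes (right) on a log axis, 1 symbol per tumor, with open symbols at 0 reads and the grey band at the CPM of 3 counts, 0.0438 to 0.0673. Pdcd1 and Ifng have 0 reads in each tumor, while Nectin3, Rgmb and Hmgb1 are above 20 CPM in each.

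Of 11 genes of the interferon-gamma arm that controls PD-L1, 10 were tested and 0 were called by edgeR or by DESeq2. Over all genes edgeR called 2.89% higher and 0.872% lower, and DESeq2 6.71% and 2.05%, so 0 of 10 is near these shares. At an unadjusted p under 0.05 in edgeR's test were 2 (Stat3 and Cmtm4), against 14.8% higher and 10.5% lower of all genes. Both were higher in footpad tumors. Stat3 was at 238 to 284 CPM in footpad and 176 to 214 CPM in flank tumors. Cmtm4 was at 129 to 146 against 86.7 to 105 CPM. The median log2 fold change of the 10 was 0.09. Ifng itself had 0 reads in all 6 tumors. Its receptor subunit Ifngr1 was at 23.5 to 27.9 CPM in footpad and 24.7 to 27.3 CPM in flank tumors, and Jak2 at 53.2 to 63.4 against 57.7 to 59.9 CPM. The interferon response factor gene Irf1 was at 10.8 to 15.9 CPM in footpad and 11.9 to 16.7 CPM in flank tumors. Cmtm6, which protects PD-L1 from degradation, was at 42.9 to 48.0 CPM in footpad and 28.4 to 44.96 CPM in flank tumors (edgeR, log2 fold change 0.26 with adjusted p = 0.406).

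Among 15 further ligands of lymphocyte co-signaling, 12 were tested, 1 was called higher and 0 lower by edgeR, against 2.89% and 0.872% of all genes. At an unadjusted p under 0.05 there were 4 of 12 in either direction, against 14.8% higher and 10.5% lower of all genes, and the median log2 fold change was 0.32. The gene called was Nectin1, an adhesion gene of the same family as Nectin2, at 3.61, 4.21 and 2.98 CPM in the footpad, against 0.172, 0.239 and 0.224 CPM in the flank (edgeR, log2 fold change 4.07 with adjusted p = 0.00677). The footpad tumors were close to each other and far from the flank tumors, and Nectin1 passed in 5 of the 6 fits without a tumor; without footpad replicate 3 its adjusted p was 0.0541 from edgeR. With limma on log2(FPKM + 1) its difference was 0.60, under the fold threshold. DESeq2 called Cd200 and Cd40 as well, where it called 6.71% of all genes higher. Of 9 other checkpoint genes of lymphocytes, 5 were tested and 0 were called in either direction by edgeR, against the same shares of all genes. Cd200r1 alone was at an unadjusted p under 0.05, and DESeq2 called it higher.

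The tested gene whose log2 CPM moved most like each checkpoint gene over the 6 tumors was found, by the root-mean-square difference of the profiles after each was centered on its own mean. For Havcr2 the closest were Mrgprf (0.14) and F2r, the thrombin receptor (0.17). For Vsir the closest was Xist (0.15), the noncoding RNA that silences an X chromosome in female cells, at 52.5, 16.7 and 33.2 CPM in the footpad, against 6.43, 16.3 and 5.43 CPM in the flank, followed by Ifi207 (0.20). Pdcd1lg2 was closest to the neutrophil gene S100a8, at the largest distance among these nearest genes (0.44). Pdcd1lg2 did not pass the filter and had at most 20 reads in a tumor. Its values in footpad replicate 2 and flank replicate 3 come from 0 reads and depend on the prior count of 1. S100a8 was at 90.9, 2.11 and 44.3 CPM in the footpad and 6.31, 9.97 and 1.25 CPM in the flank. The closest to Cd80 were Ankrd33b (0.11) and Meg3 (0.20), to Cd86 Pappa (0.36) and Slit3 (0.37), and to Cd274 Gm5900 (0.09) and Hdac7 (0.10). Those of Cd276 were Tsc2 (0.06) and Arhgef2 (0.06), and those of Lgals9 Jund (0.09) and Rhog (0.10). Pvr was closest to Dusp16 (0.06) and Isca1 (0.06), and Nectin2 to Zfp68 (0.05) and Cd99l2 (0.06). Among the checkpoint genes themselves, Lgals9 and Pvr were the closest (0.16), followed by Cd274 and Lgals9 (0.37). The profiles were centered but not scaled, so genes that vary little between tumors lie close to each other by this measure. These likenesses rest on 6 tumors, 3 from each site, so a difference between the sites is part of each profile.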

How the data were processed

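The authors quality-checked the reads of 6 stranded total RNA libraries with FastQC 0.11.7, trimmed them with Trimmomatic, aligned them to mm10 with HISAT2 2.1.0, and deposited whole read counts per RefSeq gene, without normalization, and FPKM values per tumor. The counting program, its strand setting, its handling of multi-mapped reads and the authors' filter on counts are not given in the sources used here. Groups and replicate numbers were taken from the sample titles. Nothing in the labels ties same-numbered tumors to 1 mouse. The main fit took the 6 tumors as independent. Its p-values set the difference between the sites against the spread of tumors within a site. If tumors of the 2 sites shared a mouse, the main fit leaves that pairing out.

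From the counts, edgeR 4.0.16 under R 4.3.3 fitted all genes (filterByExpr, TMM, glmQLFit, glmQLFTest, two-sided, Benjamini-Hochberg over 17210 genes; common biological coefficient of variation 0.338). The standard error is the log2 fold change divided by the square root of F. Log2 CPM used a prior count of 1. Ratios of 2 genes were tested by exact permutation of FPKM. Of 4 ratios planned, 2 had a tumor at 0 and were not tested. Within a site, each pair of tumors departed further than counting noise (chi-square 63.9 to 564 per gene). Alternatives were DESeq2 1.42.0, other filters and scalings, limma 3.58.1 on log2(FPKM + 1) and log2(FPKM + 0.1), the replicate number as a block, and leaving out each tumor. The fits were also run on simulated counts with known changes, and the outcome is not reported here. The genes and lists were chosen with earlier results of these data known. Genes named are the 10 checkpoint genes, list members past both thresholds, a fixed set of list members, and the 2 nearest profiles of each gene; Selplg, Rgmb, Hmgb1, Nectin3, Igsf11, Stat3, Cmtm4, Cd200, Cd40, Cd200r1 and Cdh23 were added after their values were seen. Some genes that this rule names are not reported here. Coordinates are those of RefSeq on GRCm38.p6, matched by gene identifier, and Python 3.11.15 with scipy 1.17.1 and matplotlib 3.10.9 made tables and figures.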

Additional observations from a re-analysis of the deposited data

How the results depend on the processing

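Directions of the 9 genes tested were the same under every alternative run, and 0 were called lower under any. The number called higher was 1 by edgeR, 3 by DESeq2, and 0 with limma on log2(FPKM + 1), where Havcr2 had a difference of 0.77 (adjusted p = 0.0291 from limma, under the fold threshold) and Cd86 one of 0.43 (adjusted p = 0.0457 from limma, likewise). With limma on log2(FPKM + 0.1) it was 1, Havcr2, at 1.49 (adjusted p = 0.0339 from limma). It was between 0 and 1 without 1 tumor. Without footpad replicate 2 the call fell on Cd80 and not on Havcr2. Havcr2 lay between 1.35 and 1.78 without 1 tumor, and its adjusted p ranged from 2.4e-04 to 0.152 over all alternatives. Cd80 was called by DESeq2 (2.91) and lay between 2.18 and 3.33 without 1 tumor, but was 1.68 and 0.49 with limma at pseudocounts of 0.1 and 1, where low values shrink the difference. Vsir was called by DESeq2 (1.99).

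Same-numbered tumors had correlations of 0.06, -0.10 and -0.12 across genes in their deviations from the site means. Other pairs ranged from -0.21 to 0.27. These values cannot show whether tumors shared a mouse, and the numbers were not taken to pair the samples. With the replicate number as a block, 0 of all genes, 0 checkpoint genes, 0 further ligands and 0 macrophage markers were called by edgeR, while 2125 genes higher and 1426 lower had an unadjusted p under 0.05, and Havcr2 had a log2 fold change of 1.66 (adjusted p = 0.128 from edgeR). DESeq2, which called 6.71% of all genes higher, called 1 partner (Selplg) and 1 other lymphocyte checkpoint gene (Cd200r1) higher. It also called 3 further ligands (Nectin1, Cd200 and Cd40) and 4 macrophage markers higher. Without 1 tumor these edgeR counts ranged from 0 to 1 for partners, from 0 to 3 for further ligands and from 0 to 1 for macrophage markers. Over all genes, edgeR called 497 higher and 150 lower, DESeq2 1154 and 352, limma 271 and 95 with a pseudocount of 1 and 639 and 215 with 0.1, and edgeR 26 and 5 without footpad replicate 1, 36 and 10 without flank replicate 3, 231 and 77 without flank replicate 1, 432 and 98 without flank replicate 2, 639 and 197 without footpad replicate 2, and 0 and 0 without footpad replicate 3, where 2061 and 1228 had an unadjusted p under 0.05. The cause of these changes was not tested. Cd80 and Cd86 could not be tested with a filter of 10 counts in every tumor. Pdcd1lg2 had 0 to 20 reads per tumor.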

Other observations

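The T cell markers differed in whether they were read. Cd3e had reads in 1 tumor, at 0.0408 CPM, and Cd3d, Cd3g and Cd5 had 0 reads in all 6. Lck was read in every tumor, at 0.365 to 1.62 CPM, as was the receptor gene Tigit, at 0.591 to 1.84 CPM, which is 0.0209 to 0.0631 FPKM. Tnfrsf9, which encodes the costimulatory receptor 4-1BB, was at 23.8, 26.2 and 14.2 CPM in the footpad, against 80.6, 15.2 and 15.9 CPM in the flank (edgeR, log2 fold change -0.80 with adjusted p = 0.471). Zbtb46 and Mertk, listed as markers of dendritic cells and macrophages, were at 8.90 to 11.6 and 79.2 to 134 CPM in all tumors, while the dendritic cell markers Xcr1, Clec9a and Cd209a had at most 0.0862 CPM and Flt3 at most 0.471 CPM. These genes were singled out after their values were seen.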
